A study of Mus musculus with 12 samples.

Results

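The genes described here are Slc17a6 and Slc17a8, which encode the vesicular glutamate transporters VGLUT2 and VGLUT3. They are 2 of the 24421 genes listed for each library of mouse dorsal raphe (DR), and were found by their symbols. They were selected on their level in each library, their relation to the counts of Tph2 and the difference between genotypes. Those values are therefore given as descriptions. Standard errors, intervals and counts of genes called beside them describe the fit, and no test of either member is drawn from them.

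The 12 libraries each hold RNA from the DR of 1 mouse. The 4 controls (2 females and 2 males) were Sert Cre/+; Stat3 fl/+ littermates of the 8 STAT3 KO animals (4 females and 4 males), which were Sert Cre/+; Stat3 fl/fl. All animals thus carried Cre in the serotonin transporter gene (Sert, Slc6a4) and at least 1 floxed Stat3 allele. They were C57BL/6 x 129 hybrids aged 8 to 16 weeks at the onset of experiments. The comparison of genotypes asks how expression in the DR differs when the transcription factor STAT3 is deleted in serotonergic cells. The DR was cut as tissue from 4 coronal sections of 300 µm, so each library holds every cell type of the piece, and fewer cells of a type cannot be told apart from less RNA per cell.

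VGLUTs load glutamate into synaptic vesicles and draw their energy from the proton pump of the vesicle membrane. VGLUT2 is the transporter of most glutamatergic neurons in the midbrain, brainstem and thalamus, while VGLUT1 (Slc17a7) serves the cortex, hippocampus and cerebellum. VGLUT3 is known from neurons that also release another transmitter, among them many serotonergic neurons of the DR. Tph2, the neuronal tryptophan hydroxylase, makes serotonin in the same cells.

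Depth was 24379588 to 29645210 counts on genes per library, and values are these counts scaled to a library total of 1000000 (CPM). A floor of 3 counts equals 0.101 to 0.123 CPM and covers counting error only. The serotonergic markers were present in every library, at a summed 1519 to 2245 CPM over 10 genes. Stat3, counted over the whole gene and not over the deleted exons alone, stood at 65.9 ± 1.26 CPM (SD, n = 4) for controls and at 66.6 ± 2.90 CPM (n = 8) for STAT3 KO. It therefore does not check the deletion. Control 4 stood apart, with 154 CPM summed over 6 markers of forebrain excitatory neurons, against 71.8 CPM in STAT3 KO 16 and 9.68 to 36 CPM in the others. Markers of cerebellar neurons were raised in control 3, STAT3 KO 10 and STAT3 KO 16, at 78.2 to 271 CPM, and were 8.11 to 23.5 CPM elsewhere. Choroid plexus markers summed to 221 CPM in STAT3 KO 16 and 226 CPM in STAT3 KO 8, against 7.84 to 12.7 CPM elsewhere. Without STAT3 KO 8 or STAT3 KO 16 the genotype differences given below were -0.30 or -0.27 for Slc17a6 and -0.018 or 0.033 for Slc17a8, on the log2 scale. Without control 3, control 4, STAT3 KO 10 and STAT3 KO 16 they were -0.37 (SE 0.067) and 0.094 (SE 0.12).

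Slc17a6 (ENSMUSG00000030500) lies at chr7:51622006-51671119 on the plus strand of GRCm38, and its full transcript has 12 exons. One annotated gene, Gm45072, overlaps it and was not in the count tables. Slc17a8 (ENSMUSG00000019935) lies at chr10:89574020-89621253 on the minus strand, also has 12 exons in its longest transcript, and overlaps no other annotated gene. The 250 bases before the most upstream RefSeq start of each gene are shown because both motifs searched bear on the regulators of this tissue. These are TTCNNNGAA, the site that STAT proteins bind, and GGAA, the core bound by ETS factors such as the serotonergic factor FEV. Capitals mark GGAA on either strand, and a GGAA on the strand opposite to the gene appears here as TTCC. The Slc17a6 window is chr7:51621580-51621829 (plus strand) and the Slc17a8 window is chr10:89621250-89621499 (minus strand), both GRCm38.p6.
Slc17a6: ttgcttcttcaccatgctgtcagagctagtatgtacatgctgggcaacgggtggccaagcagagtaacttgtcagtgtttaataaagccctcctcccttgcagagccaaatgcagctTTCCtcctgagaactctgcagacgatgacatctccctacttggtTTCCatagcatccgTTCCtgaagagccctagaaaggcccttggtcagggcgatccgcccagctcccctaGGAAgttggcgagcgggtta
Slc17a8: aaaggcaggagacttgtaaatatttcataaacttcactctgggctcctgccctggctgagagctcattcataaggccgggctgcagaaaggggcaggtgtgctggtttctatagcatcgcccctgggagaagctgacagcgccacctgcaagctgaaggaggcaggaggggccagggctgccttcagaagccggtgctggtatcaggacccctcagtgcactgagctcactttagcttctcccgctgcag
The Slc17a6 window holds GGAA at 4 places and the Slc17a8 window at 0. Of 32851 RefSeq windows of this length, 93.4% hold at least 1 GGAA, with a median of 3, and 33.4% hold 4 or more. TTCNNNGAA, whose reverse complement is itself, was found in neither window and in 7.02% of all windows. GGAA can share bases with TTCNNNGAA. A match is not a bound site, and a missing match says only that these letters are not in the window.

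Slc17a6 was the more abundant member. Per kilobase of exon it stood at 57.1 ± 9.11 CPM per kb (SD, n = 12), against 14.1 ± 2.37 CPM per kb for Slc17a8. Slc17a7 was lower still at 4.60 ± 5.71 CPM per kb, with a range of 0.795 to 21.2, and exceeded Slc17a8 in no library but control 4. The order Slc17a6 over Slc17a8 held in every library, where the ratio per kilobase ran from 2.5 in control 4 to 7.29 in control 3. Among 14143 genes with a mean of at least 1 CPM, Slc17a6 ranked 513 and Slc17a8 3873 by mean CPM, while Tph2 ranked 132. Between libraries both members varied more than most genes, with coefficients of variation of 16% and 16.8%. These are higher than those of 85.0% and 86.4% of the genes.

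The level of Slc17a6 in the controls was 355 CPM in control 13, 242 in control 4, 391 in control 3 and 398 in control 11. In the 8 STAT3 KO libraries it ran from 264 to 308 CPM with a median of 289.9. All but one of the controls were thus above every STAT3 KO library, and the exception, control 4, was the lowest of the 12. Means were 347 ± 72.1 CPM (SD, n = 4) for controls and 289 ± 17.4 CPM (n = 8) for STAT3 KO, and 8 of 8 STAT3 KO libraries were below the control mean. The log2 fold change of STAT3 KO over control was -0.29 (SE 0.099, 95% confidence interval -0.50 to -0.076), from edgeR's quasi-likelihood fit over 15453 genes. In that fit 0 genes, 0% of those tested, passed an adjusted p of 0.05, while 1184 had an unadjusted p below it. DESeq2 called 6 genes, whose share of all genes was not computed, and neither member was among them. Over all libraries 0.492% of genes had genotypes that did not overlap, and both members overlapped.

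Control 4 decided how far apart the genotypes stood. Without it the controls had 381 ± 23.1 CPM of Slc17a6 (n = 3), 8 of 8 STAT3 KO libraries lay below the lowest of them, and the log2 fold change was -0.42 (SE 0.057). Non-overlap of this direction was found in 1.29% of the 15453 genes. Without control 3 or control 11 it was -0.22 (SE 0.11) or -0.21 (SE 0.11). The refit without control 4 called 1 gene of 15545, or 0.00643%. DESeq2 without control 4 called 141 genes, whose share of all genes was not computed. Slc17a6 was among the calls of both, but it was selected on this contrast, and the library left out is the control that stood against it, so the calls are no test of Slc17a6. Control 4 also held the highest forebrain sum and the lowest sum of 6 markers of midbrain glutamatergic neurons, 20.4 CPM against 23.4 to 50.8 elsewhere. Among these was Pou4f1, a transcription factor of midbrain neurons, at 3.99 CPM in control 4. All 12 markers of both lists passed the filter on low counts.

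Markers of midbrain neurons stood beside Slc17a6 as follows. With all libraries 3 of 6 midbrain glutamatergic markers had negative log2 fold changes by genotype, with a median of -0.24. Without control 4, which held the lowest sum of these markers, all 6 were negative, with a median of -0.44 against 0.0053 for all genes. The lowest were Tfap2d, at -1.17 (SE 0.29), and Pou4f1, at -0.95 (SE 0.25), which were the 2 of 6 with an unadjusted p below 0.05, a level reached by 8.96% of all genes in that fit. All 4 dopaminergic markers were negative with all libraries (median -0.31) and without control 4 (median -0.52), where 3 of 4 had an unadjusted p below 0.05. Control 3 stood highest on that list, where its sum was 512 CPM, and control 4 was the lowest control, at 256 CPM. Leaving out control 4 thus raises the control level. Control 11 and control 13 had 352 and 380 CPM, and STAT3 KO had 239 to 347 CPM. None of these markers passed the adjusted threshold of the edgeR fit with or without control 4, and their part in the Slc17a6 difference was not tested.

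The level of Slc17a8 in the controls was 54.8 CPM in control 13, 84.6 in control 4, 46.9 in control 3 and 74.8 in control 11. In STAT3 KO it ran from 55.2 to 79.4 CPM with a median of 66.5, so the STAT3 KO values lay inside the control range. Means were 65.2 ± 17.4 CPM (n = 4) for controls and 67.2 ± 8.03 CPM (n = 8) for STAT3 KO, with 4 of 8 STAT3 KO libraries above the control mean. The log2 fold change was 0.019 (SE 0.13, 95% confidence interval -0.26 to 0.30), which leaves room for a change of either sign. Without control 4 it was 0.17 (SE 0.13), while without control 3 it was -0.11 (SE 0.12) and without control 13 it was -0.055 (SE 0.14). Control 4 had the lowest Slc17a6 and the highest Slc17a8 of all libraries, and control 3 nearly the reverse.

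**Figure D1:**
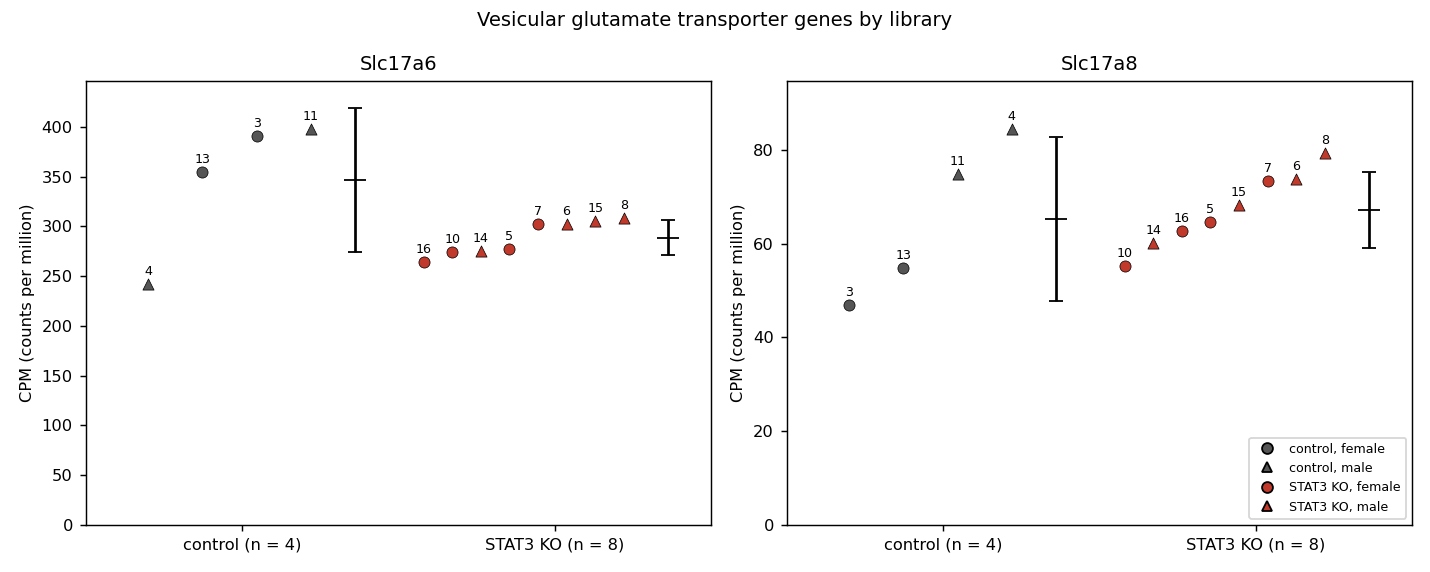
Level of Slc17a6 (left) and Slc17a8 (right) in each library, in CPM from 0, by genotype, with animal numbers, circles for females and triangles for males; bars give the mean ± SD of 4 controls and 8 STAT3 KO. Slc17a6 is 355 to 398 CPM in all controls but control 4 (242) and 264 to 308 in STAT3 KO, while the genotypes overlap for Slc17a8.

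**Figure D2:**
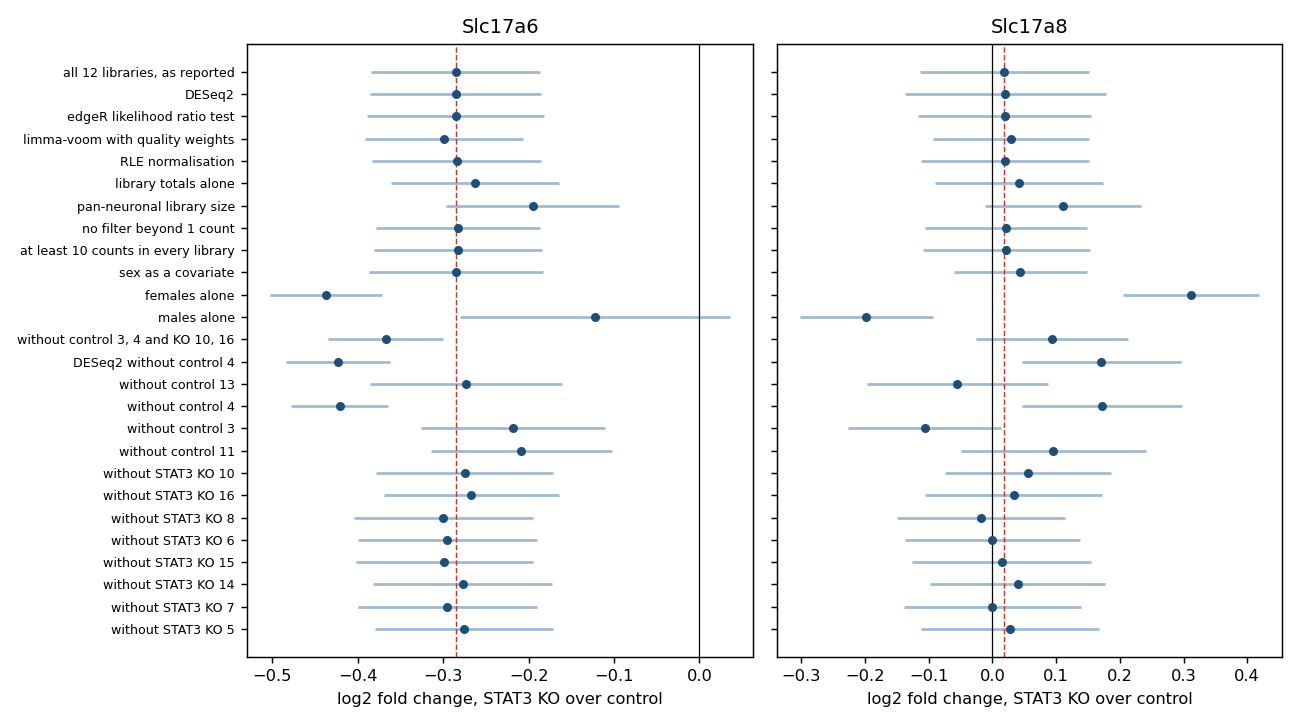
Log2 fold change of STAT3 KO over control for Slc17a6 (left) and Slc17a8 (right) under each way of fitting the counts, with standard errors; the solid line is 0 and the dashed line the value with all 12 libraries. Slc17a6 stays below 0, from -0.44 to -0.12, and Slc17a8 lies on either side of 0, from -0.20 to 0.31.

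Slc17a7, the third vesicular glutamate transporter, was 10.2 to 21.5 CPM in the controls other than control 4, which had 114 CPM. In STAT3 KO it was 4.29 to 50.9 CPM with a median of 10.9, highest in STAT3 KO 16. Its log2 fold change was -1.27 (SE 0.62) with all libraries and 0.11 (SE 0.56) without control 4. Slc17a7 is itself 1 of the 6 forebrain markers, whose median log2 fold change turned in the same way, from -0.98 to 0.38.

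Slc17a8 followed Tph2 from library to library. For each 100 counts of Tph2 there were 8.09 to 11.1 counts of Slc17a8, with a mean of 9.31 ± 0.948 (n = 12) and a coefficient of variation of 10.2%, below that of either gene alone. The ratio was 9.34 ± 1.18 in controls and 9.29 ± 0.905 in STAT3 KO. Across the 12 libraries log2 CPM of Slc17a8 and Tph2 had Pearson's r = 0.82 and Spearman's rho = 0.87. Within the 8 STAT3 KO the values were 0.79 and 0.88. Without control 3 and STAT3 KO 14, which had the lowest Tph2, r was 0.83, while it was 0.74 without control 3 alone and 0.90 without STAT3 KO 14 alone. It is a description of libraries that share each gene's count total, and was used to select the member.

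Other genes of serotonergic neurons stood at a similar likeness to Slc17a8. Pearson's r over the 12 libraries was 0.89 for Slc18a2, the vesicular monoamine transporter, and 0.87 for Ddc, which makes serotonin from its precursor. It was 0.78 for Fev, the factor that sets serotonergic identity, 0.78 for the autoreceptor Htr1a, 0.73 for Maob, which degrades monoamines, and 0.65 for Gch1, which makes the cofactor of Tph2. Part of the same marker list was less alike over the 12 libraries. Slc6a4, the serotonin transporter, had r = -0.058 (rho = 0.29), and the transcription factors Gata3 and Lmx1b had r = -0.087 and -0.20. Within the 8 STAT3 KO, r was 0.22 (rho = 0.64) for Slc6a4, 0.57 (rho = 0.64) for Maob and 0.37 (rho = 0.38) for Fev. Slc6a4 was 410 CPM in STAT3 KO 5 and 150 to 238 CPM in the other STAT3 KO libraries.

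Slc17a6 did not follow Tph2 over all libraries. Its counts per 100 of Tph2 ran from 30.6 to 72.4, with a coefficient of variation of 26.0%, and r was -0.18 (rho = -0.056). Among the 8 STAT3 KO alone r was 0.57 (rho = 0.48). The members related to each other likewise, with r = -0.30 over 12 libraries and 0.84 (rho = 0.81) over the 8 STAT3 KO. The STAT3 KO ratio of Slc17a6 to Slc17a8 per kilobase was accordingly narrow, 3.79 ± 0.298 (n = 8), while that of controls was 5.03 ± 2.0 (n = 4). With 4 controls no relation was computed in that group, and the difference between genotypes in these relations was not tested.

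**Figure D3:**
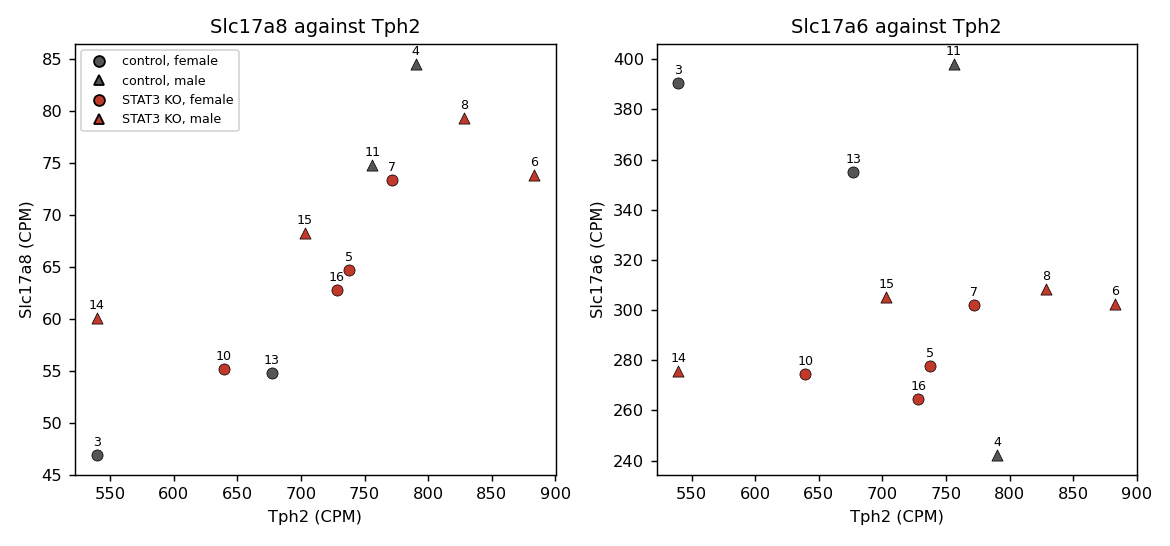
Slc17a8 (left) and Slc17a6 (right) against Tph2, in CPM on axes that do not start at 0, with 1 point per library, animal numbers, circles for females and triangles for males. Slc17a8 climbs with Tph2 across both genotypes (r = 0.82), whereas Slc17a6 does not (r = -0.18), with control 3, control 11 and control 13 above the STAT3 KO points at any Tph2.

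**Figure D4:**
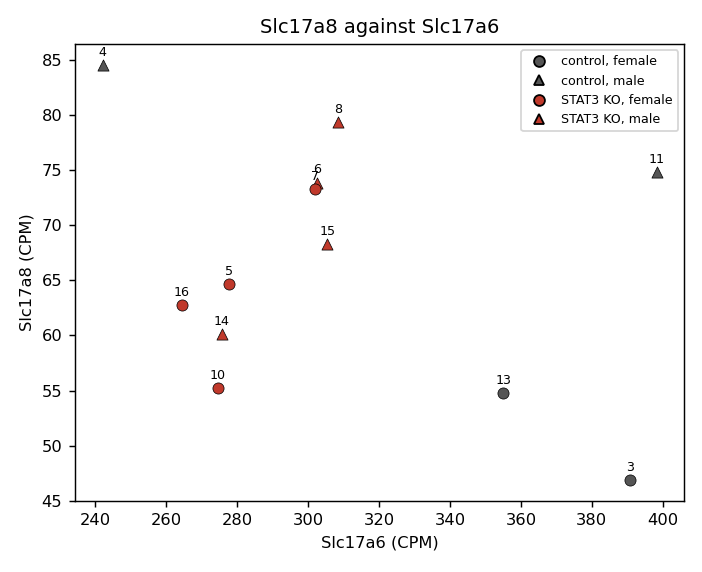
Slc17a8 against Slc17a6, in CPM on axes that do not start at 0, with 1 point per library, animal numbers, circles for females and triangles for males. The 8 STAT3 KO libraries lie along 1 rising band (r = 0.84), with control 4 at the upper left and control 3 at the lower right.

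Over 14140 genes the patterns most like that of Slc17a6 were those of Nxpe3 (r = 0.95), Sfrp1 (0.94), Endod1 (0.94), Agtr2 (0.94) and St6gal1 (0.93). Sfrp1 encodes a secreted inhibitor of Wnt signalling, Agtr2 an angiotensin II receptor and St6gal1 a sialyltransferase. The most opposite were Pdcd4 (-0.90), an inhibitor of translation, Chrm4 (-0.88), a muscarinic acetylcholine receptor, and Nat14 (-0.88). For Slc17a8 the most alike were Aldh3b2 (0.92), Stc1 (0.91), Hdac6 (0.89), Cdyl2 (0.89) and Slc18a2 (0.89). Stc1 encodes the secreted hormone stanniocalcin and Hdac6 a tubulin deacetylase. The most opposite were Fbn2 (-0.91), a fibrillin, Ryk (-0.87), a Wnt receptor, and Cnst (-0.86). Ddc ranked 11 and Tph2 18 by likeness to Slc17a8, whereas Tph2 ranked 9620 by likeness to Slc17a6. An r above 0.8 was reached by 106 genes for Slc17a6 and by 28 for Slc17a8.

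The sexes offer a comparison that did not enter the selection. Slc17a8 was 59.6 ± 9.26 CPM in females and 73.5 ± 8.55 CPM in males (n = 6 each), and 4 of 6 males were above the highest female. Over all genes 0.362% had sexes that did not overlap, and both members overlapped. In controls the females had 54.8 and 46.9 CPM and the males 84.6 and 74.8 CPM, a separation found in 18% of all genes at this group size. In STAT3 KO the females had 55.2 to 73.3 CPM and the males 60.1 to 79.4 CPM, which overlap. In the fit with a genotype term the log2 fold change of males over females was 0.31 (SE 0.098, 95% confidence interval 0.10 to 0.52). It did not pass the threshold over all genes (edgeR quasi-likelihood, adjusted p = 0.595), where 13 of 15453 genes, 0.0841%, did. An exact two-sided permutation of sex within genotype gave p = 0.0429 for Slc17a8 before any adjustment, and the smallest p that its 420 arrangements allow is 0.00476.

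Tph2 differed between the sexes by 0.15 (SE 0.10), and the counts of Slc17a8 per 100 of Tph2 were 8.72 ± 0.454 in females and 9.90 ± 0.966 in males. The same exact permutation gave p = 0.0524 for this ratio, p = 0.324 for Tph2 and p = 0.995 for Slc17a6, all before any adjustment. Slc17a6 showed a log2 difference of -0.0049 (SE 0.097, adjusted p = 0.994 with the edgeR fit), and its sign held in 14 of 20 alternatives. It was 0.096 (SE 0.047) without control 4, -0.073 (SE 0.099) without control 11 and 0.097 (SE 0.056) within STAT3 KO. Cerebellar markers moved with sex, since the raised libraries, control 3, STAT3 KO 10 and STAT3 KO 16, were all female. The Slc17a8 difference was 0.14 without these libraries and control 4, and 0.14 (SE 0.096) within STAT3 KO. The part of the markers in it was not tested.

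The genotype difference of each member was unlike in the sexes by its point estimate. For Slc17a6 it was -0.44 (SE 0.065) in females and -0.12 (SE 0.16) in males, the sex of control 4. For Slc17a8 it was 0.31 (SE 0.11) in females and -0.20 (SE 0.10) in males. The interaction of genotype and sex, males minus females, was 0.32 (SE 0.19, adjusted p = 0.940 with edgeR) for Slc17a6 and -0.50 (SE 0.17, adjusted p = 0.898) for Slc17a8. It was called for 0 of 15453 genes, 0%, by edgeR, while 848 had an unadjusted p below 0.05, and DESeq2 called 2 genes, Gm1821 and Ptdss1, which were named after their values were seen. Each sex held 2 controls, and the male ones set the Slc17a6 interaction. Without control 4 it was 0.0013 (SE 0.11). Without control 11 it was 0.73 (SE 0.12). In either case 1 male control is left, assumed to vary like the other groups. The value of 0.73 restates the low Slc17a6 of control 4, on which the gene was selected, and is a description with no test.

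The members were also compared with mean log2 CPM over 6 marker lists, which makes 12 relations. The relation of Slc17a6 to 4 dopaminergic markers was r = 0.63 (permutation p = 0.0286, adjusted p = 0.184) and rho = 0.60 (permutation p = 0.0434, adjusted p = 0.214). It was r = 0.41 without control 3 and STAT3 KO 10, so it rests partly on them, and r = 0.19 within the 8 STAT3 KO. Its relation to 6 markers of midbrain glutamatergic neurons was r = 0.58 (permutation p = 0.0498, adjusted p = 0.184) and rho = 0.38. It was r = 0.24 without control 4 and control 11, and r = -0.12 within the 8 STAT3 KO. The largest for Slc17a8 was with cerebellar markers, at r = -0.56 (permutation p = 0.0590, adjusted p = 0.184) and rho = -0.58. Of the 12 relations 0 passed an adjusted p of 0.05. Libraries were permuted across genotypes, and the level and genotype difference of each member entered the selection. The permutation p values are therefore descriptions of these libraries and no test of the members.

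The rest of the pathway of vesicular glutamate showed no gene past the threshold by genotype with edgeR's quasi-likelihood test, and the median log2 fold change of all genes was -0.0011. Of the other 6 measured SLC17 members only Slc17a5, the lysosomal sialic acid transporter, passed the filter on low counts, at 19.1 ± 1.04 CPM (n = 12) and a log2 fold change of 0.033. Slc17a9, the vesicular nucleotide transporter, was 0.142 to 0.529 CPM, and Slc17a1 to Slc17a4 were below the floor.

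All 5 vesicular transporters of other transmitters were tested, and their median log2 fold change was 0.060, or 0.15 without control 4. Slc32a1, which loads GABA and glycine, stood at 243 ± 24.5 CPM (controls) against 268 ± 29.0 CPM (STAT3 KO), a log2 fold change of 0.11 (SE 0.083), or 0.19 (SE 0.086) without control 4. Slc30a3, which loads zinc, had 0.060 (SE 0.088), or 0.21 (SE 0.057) without control 4, the largest of the list in that fit. Slc18a3, the acetylcholine transporter, had 0.069 (SE 0.17), Slc18a2 0.031 (SE 0.085) and Slc18a1, at about 1.08 CPM, -0.076 (SE 0.22).

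All 5 reported genes that make or break down glutamate had point estimates below 0, with a median of -0.049, and 0 of 5 passed the adjusted threshold with edgeR. Gls2, a glutaminase, stood at 51.9 ± 2.18 CPM (controls) against 48.4 ± 1.84 CPM (STAT3 KO), a log2 fold change of -0.13 (SE 0.042), and was the 1 gene with an unadjusted p below 0.05. Glutamate dehydrogenase, Glud1, had -0.050 (SE 0.052). Glul, the glutamine synthetase of astrocytes, had -0.037 (SE 0.071) and the aspartate aminotransferase Got1 -0.033 (SE 0.048). In the fit without control 4 the list had 4 of 5 estimates below 0, with a median of -0.046.

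Of 9 membrane transporters of glutamate and glutamine, 2 had positive and 7 negative estimates. An unadjusted p below 0.05 was found for 3 of them and for 7.66% of all genes. These 3 were Slc1a3, Slc1a2 and the neuronal transporter Slc1a1, which had -0.11 (SE 0.046). Slc1a3, the astrocytic glutamate transporter GLAST, stood at 262 ± 23.1 CPM (controls) against 324 ± 55.3 CPM (STAT3 KO), with 0.28 (SE 0.11, adjusted p = 0.615 with edgeR). Slc1a2, the astrocytic transporter GLT-1, had the opposite sign and the smallest p of the list, at -0.13 (SE 0.037, adjusted p = 0.615 with edgeR). The neuronal transporter Slc1a6 had 0.18 (SE 0.11), and the glutamine transporters Slc38a2 and Slc38a5 had -0.18 (SE 0.12) and -0.16 (SE 0.34). Slc1a6 is abundant in cerebellar Purkinje cells, and the median log2 fold change of the cerebellar list was 1.08. Their relation was not tested.

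Of 13 genes for the vesicular proton pump and its chloride path, 12 passed the filter and 11 had negative estimates. They ranged from -0.069 (SE 0.044) for the catalytic subunit Atp6v1a and -0.057 (SE 0.035) for Atp6v1b2 to -0.026 (SE 0.038) for Atp6v1c1 and 0.025 (SE 0.046) for Atp6v1f. Atp6v0c, which forms the membrane ring of the pump, was listed at 0.0691 to 0.250 CPM, near the floor. Its level is uncertain because near-identical copies could share its reads. Without control 4 edgeR again called 0 genes of these lists, which do not hold the VGLUT genes, and the DESeq2 calls of that setting were not counted by list.

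**Figure D5:**
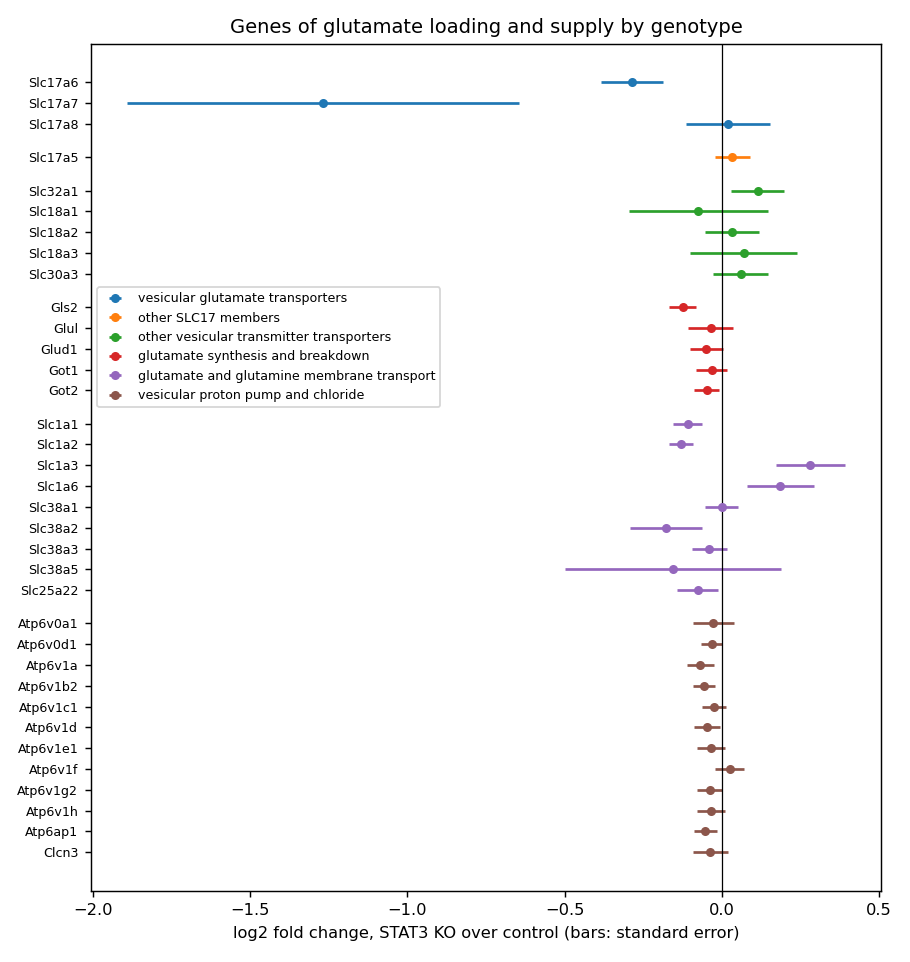
Log2 fold change of STAT3 KO over control with its standard error for the tested genes of the 6 pathway lists, coloured by list, with all 12 libraries. Slc17a7 (-1.27) has the widest error, Slc17a6 (-0.29) lies apart from Slc17a8 (0.019), and the proton pump genes lie between -0.069 and 0.025.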

How the data were processed

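RNA of the DR of 12 mice was sequenced by the authors as 75-base single reads. Per the submitters' processing notes, bcl2fastq, STAR 2.5.0b, the mm10 assembly and DESeq2 1.6.3 were used. The read counter, the annotation and the use of strand are not given in the sources used here, so reads from overlapping or antisense genes cannot be told apart. The deposited files hold 1 column of raw counts per symbol and animal. Lines for reads on no single gene, 13.9% to 15.8% of listed reads, were left out. Genotype and sex came from the labels, which name no batch. The 66 pairs of libraries differed by 5.24 to 29.1 times the counting variance over 13400 genes, so none was a copy.

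CPM were computed over all gene rows. The test was edgeR's quasi-likelihood test (edgeR 4.0.16, R 4.3.3) with TMM normalisation and filterByExpr, and Benjamini-Hochberg adjustment at 0.05. Genotype was fitted without a covariate and sex with a genotype term. The standard error is the log2 fold change over the square root of the test statistic. Relations used log2 CPM (TMM, prior count of 2) with 100000 permutations. Alternatives were DESeq2 1.42.0, the likelihood ratio test, limma-voom (limma 3.58.1), RLE, library totals or pan-neuronal counts as library size, other filters, sex as a covariate, each sex alone and each animal left out. Fits were tested on simulated data. Python 3.11.15 with scipy 1.17.1 and matplotlib 3.10.9 was used. Gene positions and exon lengths are those of GENCODE for GRCm38, matched by symbol. Promoter windows are from RefSeq.

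The members and gene lists were chosen with earlier results of these data known. Named were both members, Tph2, Slc17a7, Slc6a4, Fev and Stat3. Of each other pathway list the genes called were named, or otherwise the 2 highest and 2 lowest by genotype. The 5 most alike and 3 most opposite genes of each member, and markers that stand beside a result, were also named. Atp6v0c, Slc1a1, Slc1a2 and Slc30a3 were named after their values were seen. Gch1, Htr1a, Maob, Gata3, Lmx1b and Ddc were named as serotonergic markers beside the relation to Tph2. One gene of the glutamate synthesis list is not reported here and was left out of that list's counts, but not of the tests over all genes.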

Additional observations from a re-analysis of the deposited data

Results flagged for a closer look

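In 22 groups, of 4 controls or 8 STAT3 KO each, 3 values lay farther from the rest of their group than Dixon's limit. Chance gives about 1 in 20 groups, or 1.1. Slc17a7 was 114 CPM in control 4, against 10.2 to 21.5 CPM in the other controls. Slc17a7 was also 50.9 CPM in STAT3 KO 16, against 4.29 to 23.9 CPM in the other STAT3 KO. Slc6a4 was 410 CPM in STAT3 KO 5, against 150 to 238 CPM in the others of that genotype. No value of Slc17a6 or Slc17a8 was beyond the limit, although control 4 had the lowest Slc17a6 of its group.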

How the results depend on the processing

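The Slc17a6 genotype difference kept its sign in 25 of 25 alternatives, from -0.44 to -0.12, and from -0.42 to -0.21 when 1 animal was left out. That of Slc17a8 kept its sign in 20 of 25, from -0.20 to 0.31, with 0.31 in females alone and -0.11 to 0.17 when 1 animal was left out. With pan-neuronal counts as library size they were -0.20 and 0.11. Genes called for genotype numbered 6 with DESeq2, 3 with the likelihood ratio test (Nrn1, Rasgef1b and Stac2) and 2 in males alone (Gm1821 and Ptdss1). They numbered 141 with DESeq2 without control 4, against 0 in the main fit, and 0 to 1 when 1 animal was left out. Shares of all genes were computed only for the main fit and the edgeR fit without control 4. Genes called for sex were 24 with DESeq2 and 7 without control 3, control 4, STAT3 KO 10 and STAT3 KO 16, and 10 to 13 when 1 animal was left out. The Slc17a8 sex difference was 0.32 in the exact permutation, whose p is unadjusted, and 0.14 to 0.38 over all alternatives. The Slc17a6 interaction with sex was 0.73 without control 11 and 0.0013 without control 4, the highest and lowest values when 1 animal was left out. Each of these fits leaves 1 male control and is no test. The relation of Slc17a6 to Tph2 was r = 0.57 in STAT3 KO alone, and that of Slc17a8 stayed between 0.73 and 0.90. The cause of the changes was not tested. The settings without the named 4 libraries, DESeq2 without control 4 and the permutation by sex were chosen after seeing the data. No paired analysis was made, because the labels used here give no litter by which littermates could be paired. The sign of the Slc17a8 genotype difference turned in males alone and without control 3, control 13, STAT3 KO 8 or STAT3 KO 7, and the relation of Slc17a6 to Tph2 ran from r = -0.36 without STAT3 KO 14 to 0.14 without control 3. The members had 1274 to 10618 counts per library.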
